A study of Mus musculus with 20 samples.

Results

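The collagen chain genes were taken as every gene in the deposited count table whose symbol is Col followed by a number, the letter a and a second number. This rule used symbols only and no measured value. It found 44 of the 54532 genes in the table, each annotated as protein-coding. By the structure of the protein, 11 members encode fibrillar chains, 9 encode FACIT chains (fibril-associated collagens with interrupted triple helices), 6 encode beaded filament chains of the type VI family, 6 encode the type IV chains of basement membranes, 3 belong to the basement membrane zone, 3 are short network-forming chains, 4 span the cell membrane, and 2 (*Col26a1* and *Col28a1*) stand in none of these classes.

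RNA was sequenced from the condylar head of the mouse temporomandibular joint (TMJ), the jaw joint, cut out with part of its subchondral bone. All animals of both groups carried floxed *Loxl2* (*Acan*-Cre; *Loxl2* fl/fl), with a tamoxifen-inducible Cre recombinase (CreERT2) expressed from the aggrecan (*Acan*) locus. The 8 control animals (4 males and 4 females) were injected with vehicle and the 12 animals labelled knockout (6 males and 6 females) with 75 mg/kg tamoxifen in corn oil, each daily for 5 days and then monthly, from 6 months of age, with collection after 4 months. The comparison addressed what follows when LOXL2, an enzyme that crosslinks collagen, is lost from the cartilage of the condyle. The strain background was not stated, and the drug and the deletion cannot be told apart in this design. Cre acts only in cells that express aggrecan, whereas the RNA came from the whole piece, so in these bulk libraries a change in the number of cells of a type and a change in RNA per cell cannot be told apart.

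Collagens are built from chains that wind around each other as a triple helix, and the helix forms where glycine recurs at a fixed spacing along each chain. Fibrillar chains are secreted as procollagens, trimmed at their ends, packed into fibrils and crosslinked through lysine residues by the lysyl oxidase family, to which LOXL2 belongs. Type I is the main collagen of bone, tendon and the fibrous covering of the condyle, types II, IX and XI make the fibrils of cartilage, type X is made by hypertrophic chondrocytes, type VI forms fine filaments around cells, and type IV forms the sheet of basement membranes.

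The feature that joins the 44 members can be read in their coding sequences. In the transcript with the longest coding sequence of each member (GENCODE M21, GRCm38), an uninterrupted run of at least 20 triplets opening with a glycine codon (GGN, where N is any base) was found in 44 of 44 members, against 64 (0.287%) of 22301 genes with a coding transcript, members included. The first 90 bases of the longest run are printed for both type I chains, which rose most among the abundant members, for the type XI chain *Col11a1*, and for *Col7a1*, which was lower. Capitals mark the glycine codons that open each triplet. The genes lie at chr11:94936224-94953042 (*Col1a1*, plus strand), chr6:4504814-4541544 (*Col1a2*, plus), chr3:114030540-114220718 (*Col11a1*, plus) and chr9:108953586-108984875 (*Col7a1*, plus). The stretches lie in their exons, start at coding positions 502, 289, 1579 and 7552, counted from the A of the start codon, and are given on the sense strand.
Col1a1: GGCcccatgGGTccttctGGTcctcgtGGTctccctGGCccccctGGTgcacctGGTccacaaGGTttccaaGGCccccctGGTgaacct
Col1a2: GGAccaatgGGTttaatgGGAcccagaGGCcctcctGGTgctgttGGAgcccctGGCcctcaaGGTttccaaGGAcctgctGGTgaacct
Col11a1: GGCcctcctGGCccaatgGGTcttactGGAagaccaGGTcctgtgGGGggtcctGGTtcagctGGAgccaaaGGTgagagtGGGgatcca
Col7a1: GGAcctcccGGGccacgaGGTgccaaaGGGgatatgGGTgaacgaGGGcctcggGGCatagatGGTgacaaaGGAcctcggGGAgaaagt

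Total counts ranged from 14177222 to 23795467 in the control libraries and from 11153820 to 27045668 in the libraries labelled knockout. By these totals alone, 3 counts corresponded to between 0.111 and 0.269 CPM (counts in a library scaled to 1000000 counts). All other CPM values also use a TMM scaling factor for each library, so the same count can read somewhat lower or higher there. The targeted gene showed no fall with the knockout label. *Loxl2* read 16 (lowest), 70.3 (median) and 103 (highest) CPM in control libraries and 28.8, 110 and 126 CPM in the libraries labelled knockout, with 11 of 12 of the latter above the control median (log2 fold change 0.64, SE 0.28, adjusted p = 0.101). Deposited gene counts do not say whether the reads include the deleted part of the gene, and the groups are therefore named by their labels throughout. Control library 8 stood apart. It was the lowest control library for 30 of the 42 members tested, its summed cartilage markers read 123 CPM against a control median of 2200 CPM, and its summed skeletal muscle markers were the highest of the control libraries. None of the cartilage markers was called (0 higher and 0 lower of 10 tested, of 14 listed; range of the sum 123 to 3606 CPM in control and 453 to 4123 CPM in knockout-labelled libraries), while skeletal muscle markers summed to between 38408 and 199350 CPM in a sample labelled as joint.

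The collagen chain genes that passed the test were, with 2 exceptions, higher in the libraries labelled knockout. Of the 42 members with enough counts to be tested, 19 were higher, 2 were lower (*Col7a1* and *Col26a1*) and 21 did not pass the test (edgeR quasi-likelihood test, Benjamini-Hochberg adjusted p under 0.05 over all 15984 genes tested). Over all genes tested, 23.0% were called, 12.0% higher and 11% lower. The median log2 fold change, here always knockout-labelled against control, was 0.72 over the members and -0.02 over all genes, and 32 of 42 members and 7683 of 15984 genes had a positive value. Groups overlapped for each of the 42 members tested, as they did for nearly all genes. Of all genes tested, 0.213% lay wholly above and 0.0876% wholly below the control range. For 10 of the 19 higher members, all 12 knockout-labelled libraries lay above the control median, and for none of the 19 did fewer than 9. These members were called from the same libraries and no such count was made over all genes, so it describes their spread and adds no support. Without control library 8, 18 members were called, 16 of them higher, against 15.7% of all genes. With DESeq2 22 members were called, 19 of them higher, against 22.5% of all genes, the additional call being *Col17a1*.

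**Figure D1:**
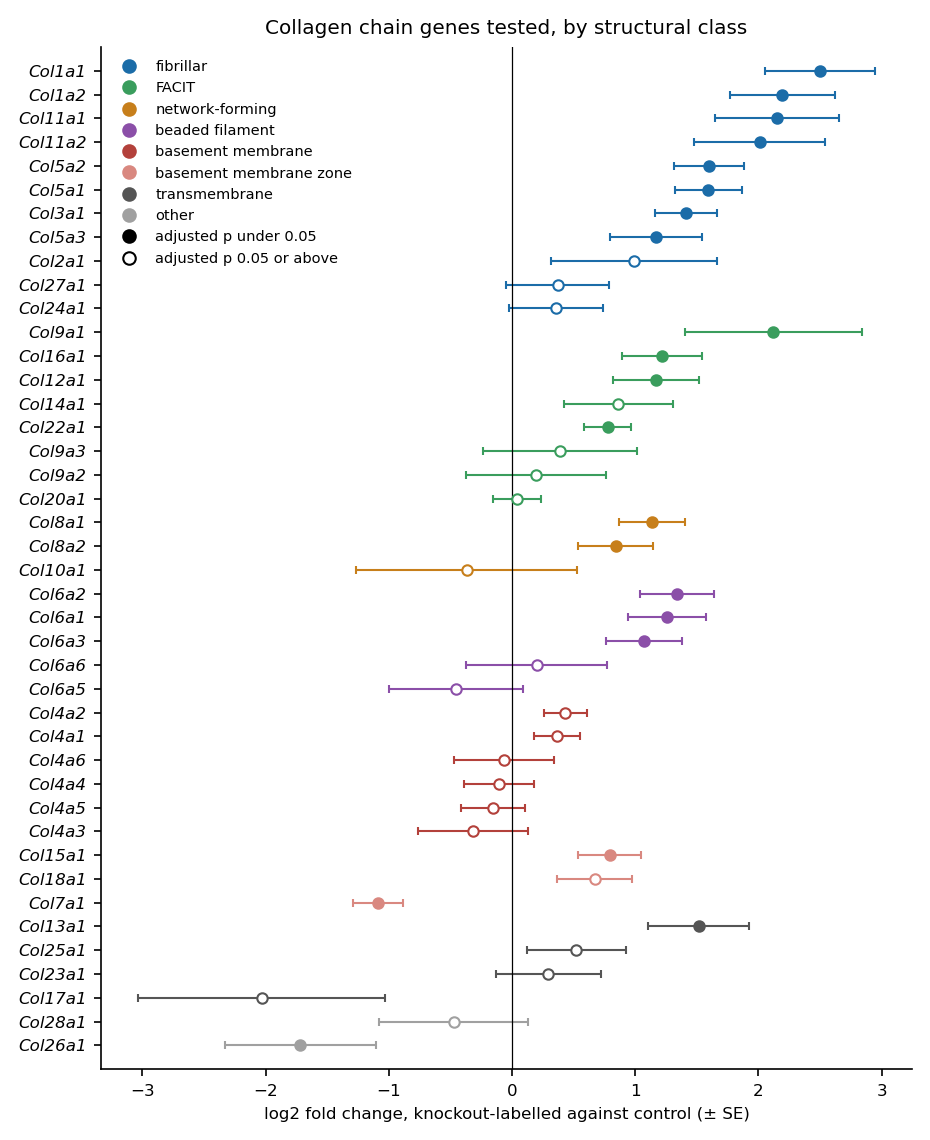
Log2 fold change (knockout-labelled against control, x axis) with its standard error for the 42 collagen chain genes tested, grouped and coloured by structural class; filled points have an adjusted p under 0.05. The 11 fibrillar chains all lie to the right of 0, the 6 type IV chains lie around it with open points, and *Col7a1* and *Col26a1* are the filled points on the left.

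Of the 11 fibrillar chains 8 were higher and none was lower, and their median log2 fold change of 1.59 was the highest of the classes. Both chains of type I collagen rose. *Col1a1*, the chain present in a pair of copies in each type I molecule, read 1117, 2267 and 10308 CPM (lowest, median, highest) in control libraries and 3711, 18413 and 34969 CPM in knockout-labelled libraries. Control library 5 was the high control library and knockout-labelled library 5 the low one of its group, and 9 of the 12 knockout-labelled libraries lay above all controls. The log2 fold change was 2.50 (SE 0.45, adjusted p = 0.00144). *Col1a2*, the partner chain, went from 853, 2335 and 8605 CPM to 2944, 14643 and 22104 CPM. Here 8 of 12 knockout-labelled libraries exceeded the highest control, which was again control library 5, and the log2 fold change was 2.19 (SE 0.42, adjusted p = 0.00204).

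Type III and type V chains, which are incorporated into type I fibrils in soft tissue, were higher as well, with smaller fold changes and smaller standard errors than the type I chains. *Col3a1* read 653, 1530 and 2508 CPM in control and 1801, 3454 and 5878 CPM in knockout-labelled libraries. All of the latter lay above the control median and 10 of 12 above the highest control (log2 fold change 1.41, SE 0.25, adjusted p = 0.00144). *Col5a1*, whose product helps to start type I fibrils, had the smallest p of the members and went from 90.04, 281 and 540 CPM to 455, 940 and 1135 CPM. Only 2 knockout-labelled libraries fell inside the control range, both below the highest control (log2 fold change 1.59, SE 0.27, adjusted p = 0.00128). Its partner *Col5a2* followed closely, from 66.3, 307 and 547 CPM to 441, 845 and 1204 CPM, again with 10 of 12 above all controls (log2 fold change 1.60, SE 0.29, adjusted p = 0.00144). *Col5a3*, the less widely used type V chain, read 19.4, 41.3 and 116 CPM in control and 37.4, 86.1 and 298 CPM in knockout-labelled libraries, with 3 of 12 above the highest control. Its log2 fold change was 1.17 (SE 0.37, adjusted p = 0.0282), and the call was lost without control library 4, 7 or 8, with an adjusted p of up to 0.0597.

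Of the fibrillar chains of cartilage, both type XI chains were called and the type II chain was not. *Col2a1*, the chain of type II collagen and the main collagen of hyaline cartilage, read 1.68, 658 and 1159 CPM in control and 66.3, 1242 and 2267 CPM in knockout-labelled libraries. Control library 8 was far below the other controls, 9 of 12 knockout-labelled libraries lay above the control median, and the difference did not pass the test (log2 fold change 0.99, SE 0.68, adjusted p = 0.299; 0.81 without control library 8). The mean log2 CPM of the tested genes of a list of cartilage markers was then added to the fit as a covariate. In that fit *Col2a1* was called higher (log2 fold change 1.64, SE 0.45, adjusted p = 0.0115). With osteoblast and osteocyte markers in their place its log2 fold change turned to -0.95 (adjusted p = 0.181). The type XI chains, which share fibrils with type II in cartilage and are also made outside it, were higher. *Col11a1* went from 9.26, 52.1 and 157 CPM to 33.8, 314 and 569 CPM, with 8 of 12 knockout-labelled libraries above all controls (log2 fold change 2.15, SE 0.50, adjusted p = 0.00581). *Col11a2* went from 28.8, 127 and 495 CPM to 57.1, 700 and 1092 CPM, with 7 of 12 above all controls (log2 fold change 2.01, SE 0.53, adjusted p = 0.011). For both, 1 knockout-labelled library, library 5, lay below the control median. With the osteoblast and osteocyte covariate the log2 fold change was 0.73 for *Col11a1*, which was still called, and 0.50 for *Col11a2*, which was not (adjusted p = 0.166). The remaining fibrillar chains, *Col24a1* and *Col27a1*, have a shorter and interrupted helix and did not pass the test, with log2 fold changes of 0.35 (SE 0.38) and 0.37 (SE 0.42). *Col27a1* was called higher with the cartilage covariate (0.59, adjusted p = 0.0355).

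**Figure D2:**
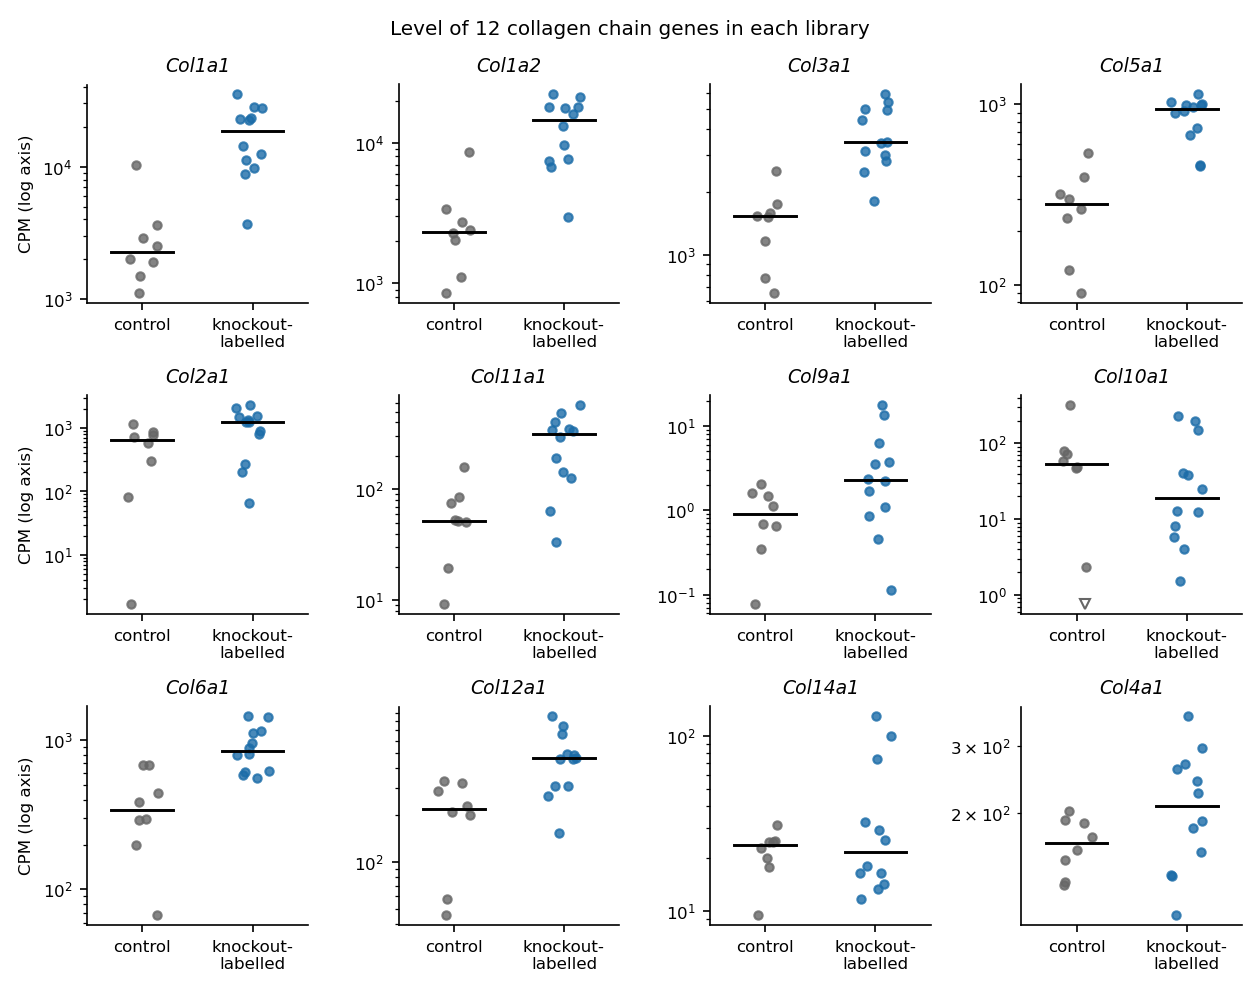
CPM (log axes, 1 scale per gene) of 12 collagen chain genes in each library, control (grey, n = 8) and knockout-labelled (blue, n = 12), with the group median as a bar and an open triangle for the control library with no *Col10a1* count. For *Col1a1*, *Col1a2*, *Col3a1*, *Col5a1* and *Col6a1* at least 8 knockout-labelled libraries lie above all controls, *Col2a1* and *Col10a1* spread over more than the difference between groups, and for *Col14a1* 4 lie above all controls.

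Summed over the 44 members, collagen chains took 0.264% (lowest), 0.968% (median) and 2.88% (highest) of the counts of a control library and 1.36%, 4.78% and 7.81% of a knockout-labelled library. The means were 1.13% ± 0.799 (SD, n = 8) and 4.69% ± 2.02 (SD, n = 12), and 10 of 12 knockout-labelled libraries lay above the highest control, which was control library 5, with the next highest control at 1.33%. Of that total, *Col1a1* and *Col1a2* together held 41.6%, 49.8% and 67.9% of the collagen counts of a control library and 47.4%, 70.1% and 82.6% of those of a knockout-labelled library, 7 of which lay above all controls. The share held by *Col3a1* had a median of 13.6% in control (9.01% to 17.8%) and 8.25% in knockout-labelled libraries (4.09% to 22.5%), and that of *Col2a1* a median of 4.16% (0.0458% to 9.81%) and 2.52% (0.472% to 3.93%). Leaving type I out, the other 42 chains took 0.122%, 0.549% and 0.925% of control counts and 0.663%, 1.30% and 1.94% of knockout-labelled counts, with 10 of 12 libraries again above all controls. No test was made on these sums over members.

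**Figure D3:**
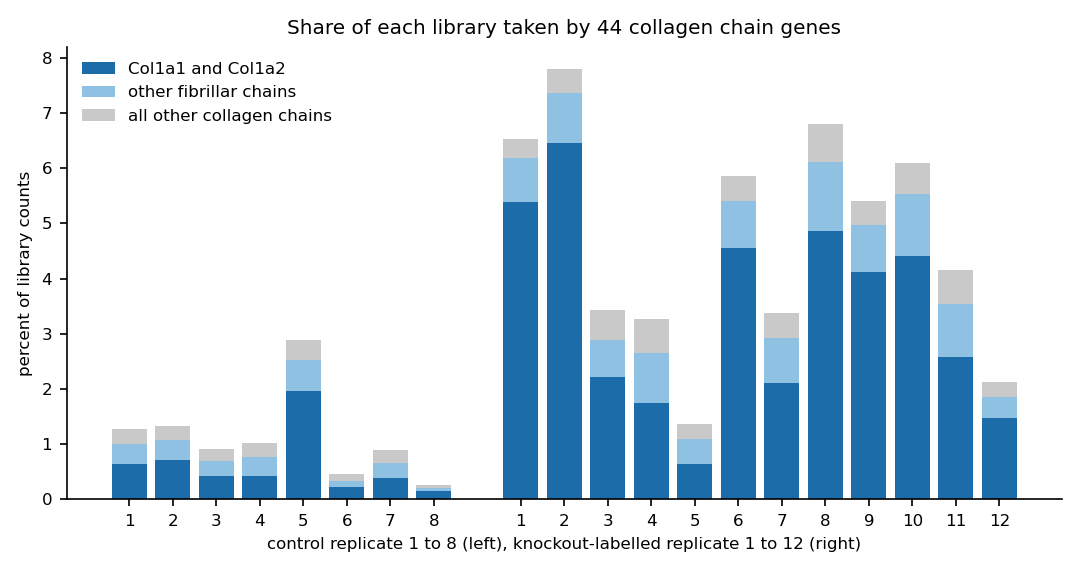
Percent of the counts of each library (y axis) held by *Col1a1* and *Col1a2* (dark blue), the other fibrillar chains (light blue) and all other collagen chains (grey), with the 8 control libraries on the left and the 12 knockout-labelled libraries on the right. The bars run from 0.264% to 2.88% in control and from 1.36% to 7.81% in knockout-labelled libraries, and control library 5 exceeds knockout-labelled libraries 5 and 12.

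FACIT collagens sit on the surface of fibrils and bridge them to other matrix. Of the 9 members of this class 8 were tested, 4 were higher, none was lower, all 8 had a positive log2 fold change, and the median was 0.82. *Col12a1*, found on type I fibrils in fibrous and load-bearing tissue, read 45.6, 219 and 332 CPM in control and 153, 462 and 861 CPM in knockout-labelled libraries. All but 1 of the latter exceeded the control median (log2 fold change 1.17, SE 0.35, adjusted p = 0.0209). *Col16a1*, which is found with both fibrillin and collagen fibrils, went from 56.0, 234 and 342 CPM to 145, 573 and 718 CPM, with 9 of 12 above all controls (log2 fold change 1.22, SE 0.32, adjusted p = 0.0114). *Col22a1*, a collagen of tissue junctions such as that between muscle and tendon, went from 55.9, 95.3 and 126 CPM to 95.0, 163 and 215 CPM (log2 fold change 0.77, SE 0.19, adjusted p = 0.00825). The groups overlapped for all 3, and 8 of 12 knockout-labelled libraries lay above the highest control for *Col12a1* and for *Col22a1*. With the osteoblast and osteocyte covariate none of the 3 was called, at log2 fold changes of 0.40 for *Col12a1*, 0.49 for *Col16a1* and 0.70 for *Col22a1*.

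The related *Col14a1*, which like *Col12a1* binds type I fibrils, was not called. It read 9.49, 23.8 and 30.9 CPM in control and 11.7, 21.8 and 129 CPM in knockout-labelled libraries, where 6 libraries were above and 6 below the control median. Of these, 4 lay above all controls, and the log2 fold change was 0.86 (SE 0.44, adjusted p = 0.161). Of the type IX chains, which decorate type II fibrils in cartilage, *Col9a1* rose from 0.0766, 0.896 and 2.03 CPM to 0.113, 2.31 and 17.5 CPM (log2 fold change 2.12, SE 0.72, adjusted p = 0.0378). These are low levels, and 3 of 12 knockout-labelled libraries were below the control median. The call was lost without control library 2, 3, 5, 6 or 8 or knockout-labelled library 8, 9 or 11, with an adjusted p of up to 0.0712. Its partner chains, with which it forms a trimer, were not called: *Col9a2* had control and knockout-labelled medians of 13.1 and 11.7 CPM (log2 fold change 0.19, SE 0.57) and *Col9a3* of 11.4 and 11.3 CPM (log2 fold change 0.39, SE 0.63). Part of the exons of *Col9a3*, 6.07% of bases, overlaps the antisense gene *Tcfl5*, and reads of the 2 cannot be told apart where strand was not used in counting. *Col20a1* gave a log2 fold change of 0.04 (SE 0.19, adjusted p = 0.903), and *Col19a1* reached no more than 6 counts in any library and was not tested.

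Among the short network-forming chains, both type VIII chains were higher and the type X chain was not called. *Col8a1*, a collagen of vessel walls and other subendothelial matrix, read 7.43, 22.9 and 57.6 CPM in control and 26.7, 59.96 and 80.5 CPM in knockout-labelled libraries, all 12 of which exceeded the control median (log2 fold change 1.13, SE 0.27, adjusted p = 0.00606). *Col8a2* went from 19.5, 82.9 and 99.5 CPM to 49.1, 138 and 209 CPM. Its log2 fold change of 0.84 (SE 0.30) only just passed, at an adjusted p of 0.0497, and the call was lost in 15 of the 20 fits that left out 1 library, with an adjusted p of up to 0.0857. *Col10a1*, a marker of hypertrophic chondrocytes, had 0, 53.1 and 317 CPM in control and 1.52, 18.9 and 231 CPM in knockout-labelled libraries. The control library without a count was library 8, 9 of 12 knockout-labelled libraries were below the control median, and the log2 fold change was -0.37 with an SE of 0.90 (adjusted p = 0.801). Without control library 7, the highest, it turned to 0.46, and with the osteoblast and osteocyte covariate it was called lower (-2.92, adjusted p = 0.0384).

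Of the beaded filament class, the 3 chains that make up the common type VI molecule rose together. *Col6a1* read 67.3, 341 and 685 CPM in control and 557, 847 and 1444 CPM in knockout-labelled libraries, with every one of the latter above the control median (log2 fold change 1.26, SE 0.32, adjusted p = 0.00846). *Col6a2* gave a log2 fold change of 1.34 (SE 0.30, adjusted p = 0.00437), from a median of 271 to 754 CPM. *Col6a3* gave 1.07 (SE 0.31, adjusted p = 0.0171), from a median of 392 to 636 CPM. With the osteoblast and osteocyte covariate *Col6a2* was still called (1.15), and *Col6a1* (1.03, adjusted p = 0.0612) and *Col6a3* (0.78, adjusted p = 0.122) were not. The alternative chains, which can replace the third chain in some tissues, were scarce and not called: *Col6a5* had a log2 fold change of -0.46 (SE 0.54) and *Col6a6* of 0.20 (SE 0.57), each with medians under 2 CPM in both groups. *Col6a4* had no count in 5 libraries and a control median of 0.0664 CPM and was not tested, although knockout-labelled library 4 held 377 counts of it (17.2 CPM).

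Of the type IV chains of basement membranes 0 of 6 were called by edgeR and 0 of 6 by DESeq2, with 1 of 6 at an unadjusted p under 0.05 in edgeR. The median log2 fold change of the class was -0.09. *Col4a1*, which with *Col4a2* makes the type IV molecule of most basement membranes, read 129, 166 and 202 CPM in control and 108, 208 and 358 CPM in knockout-labelled libraries, of which 8 lay above and 4 below the control median (log2 fold change 0.37, SE 0.19, adjusted p = 0.161). *Col4a2* had medians of 155 and 200 CPM and a log2 fold change of 0.43 (SE 0.17, adjusted p = 0.0759), and it passed the test without knockout-labelled library 1 or 2, with library totals alone as scaling (0.57, adjusted p = 0.0406) and with epithelial markers as a covariate (0.52, adjusted p = 0.022). The other 4 chains, used in fewer basement membranes, had control medians between 0.613 and 4.58 CPM and log2 fold changes from -0.32 (*Col4a3*) to -0.07 (*Col4a6*). The type IV genes lie as 3 head-to-head pairs, each read outward from a shared start region: the annotated starts of *Col4a1* (chr8:11198423-11312826, minus strand) and *Col4a2* (chr8:11312805-11449287, plus strand) overlap by 22 bases, those of *Col4a4* and *Col4a3* on chromosome 1 lie 72 bases apart, and those of *Col4a6* and *Col4a5* on chromosome X lie 1309 bases apart. The exons of *Col4a3* share 5.65% of their bases with an antisense gene. Summed endothelial and pericyte markers, another measure of tissue that holds type IV, had a median of 998 CPM (902 to 1486) in control and 1050 CPM (708 to 1327) in knockout-labelled libraries, with 1 of 10 markers called, higher.

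In the basement membrane zone 1 member was lower, 1 was higher and 1 was not called. *Col7a1*, the chain of the anchoring fibrils that tie epithelium to the tissue beneath it, was lower. It read 22.3, 30.8 and 50.0 CPM in control and 7.58, 14.9 and 27.2 CPM in knockout-labelled libraries. None of the 12 knockout-labelled libraries reached the control median and 11 lay below the lowest control, the exception being library 5 (log2 fold change -1.09, SE 0.20, adjusted p = 0.00172). The highest control was library 8. *Col15a1*, a multiplexin of vessels, muscle and nerve, went from 18.6, 63.0 and 99.9 CPM to 65.0, 107 and 163 CPM (log2 fold change 0.79, SE 0.26, adjusted p = 0.0296). All 12 knockout-labelled libraries were above its control median, yet the call was lost without control library 3, 6 or 7, with an adjusted p of up to 0.0606. *Col18a1*, whose C-terminal part is endostatin, had medians of 19.7 and 27 CPM and did not pass (log2 fold change 0.67, SE 0.31, adjusted p = 0.116), although it did with epithelial markers as a covariate (0.94, adjusted p = 0.00477).

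Of the transmembrane collagens, *Col13a1*, which is found at cell adhesions and neuromuscular junctions, was called higher, from 5.88, 20.6 and 53.3 CPM to 12.0, 73.1 and 117 CPM (log2 fold change 1.51, SE 0.41, adjusted p = 0.0126). Of its knockout-labelled libraries 8 lay above the highest control and 1, library 5, below the control median. *Col17a1*, the hemidesmosome collagen of epithelial cells, read 0.277, 0.637 and 22.8 CPM in control and 0, 0.262 and 12.8 CPM in knockout-labelled libraries. A few libraries held most of its counts: control libraries 1 and 2 read 22.8 and 21.7 CPM and knockout-labelled libraries 11 and 4 read 12.8 and 3.33 CPM, and the difference did not pass in edgeR (log2 fold change -2.03, SE 1.0, adjusted p = 0.145). DESeq2 called it lower (log2 fold change -3.48, SE 0.87, adjusted p = 0.00116). *Col23a1* and *Col25a1* were not called, at log2 fold changes of 0.29 (SE 0.43) and 0.52 (SE 0.40). Outside the classes, *Col26a1* was called lower, from 0.175, 1.36 and 9.08 CPM to 0, 0.93 and 2.21 CPM (log2 fold change -1.72, SE 0.61, adjusted p = 0.0476). The same control libraries 1 and 2 were the high ones, at 9.08 and 7.73 CPM, and the call was lost in 14 of 20 fits that left out 1 library, with an adjusted p of up to 0.155. *Col28a1* was not called (log2 fold change -0.47, SE 0.60).

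The epithelial markers followed the same few libraries as *Col17a1*. *Col26a1* shared only the control libraries with them, and read 0.354 and 0.776 CPM in knockout-labelled libraries 11 and 4, below its knockout-labelled median of 0.93 CPM. Summed over 8 markers, the epithelial list read 169 and 137 CPM in control libraries 1 and 2 and between 10.2 and 28.9 CPM in the other 6 controls. It read 94.6 and 78.4 CPM in knockout-labelled libraries 11 and 4 and between 5.51 and 25.7 CPM in the other 10. Of the 4 epithelial markers with enough counts to test, 1 was lower and none was higher. The mean log2 CPM of the tested genes of this list was added to the fit as a covariate. *Col17a1* then had a log2 fold change of 0.59, *Col26a1* was no longer called, and *Col7a1* was still called lower (-1.13). The *Col26a1* call was also lost with the skeletal muscle, osteoblast and osteocyte, osteoclast and cartilage lists, so its loss was not particular to epithelial markers. The fit with the epithelial list called 31.2% of all genes. For *Col7a1* the log2 fold change was smaller with the skeletal muscle list (-0.70) and with the osteoblast and osteocyte list (-0.69), still called lower in both.

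Divided by the length of the transcript with the longest coding sequence, the members ranged over several orders of magnitude. In control libraries the highest median levels were those of *Col1a2* (437 CPM per kb), *Col1a1* (382), *Col3a1* (275), *Col2a1* (129), *Col6a1* (83.2) and *Col6a2* (68.6), and the lowest were those of *Col4a6* (0.0921), *Col19a1* (0.0176) and *Col6a4* (0.00901). In knockout-labelled libraries the leading medians were 3105 CPM per kb for *Col1a1*, 2738 for *Col1a2*, 621 for *Col3a1* and 243 for *Col2a1*. The order of the 2 type I chains in control depended on the length used: per kb of all annotated exons *Col1a1* stood at 345 and *Col1a2* at 188. Calls were made at each range of levels. Of the 15 members with a control median of at least 100 CPM 11 were higher and none lower, of the 23 between 1 and 100 CPM 7 were higher and 2 lower, and of the 4 tested members under 1 CPM 1 was higher.

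The length of the uninterrupted triplet run set the fibrillar chains apart and varied within other classes. It was between 337 and 344 triplets in 9 fibrillar chains (*Col1a1*, *Col1a2*, *Col2a1*, *Col3a1*, both major type V chains, *Col5a3* and both type XI chains), 216 and 217 in *Col24a1* and *Col27a1*, 113 in the type IX chains and *Col22a1*, 87 in *Col6a1* and *Col6a2*, 75 in *Col7a1* and 23 in *Col26a1*, with a median of 58.5 over the 44 members. Other members of the same classes had shorter runs: 32 in the FACIT chains *Col12a1*, *Col14a1* and *Col20a1*, 37 in *Col6a5*, and 30 in *Col15a1* and *Col18a1*. Of the 9 members with at least 300 triplets, 8 were higher and *Col2a1* was not called (median log2 fold change 1.60). Of the 33 tested members with fewer, 11 were higher and 2 lower (median 0.37). All 9 are fibrillar chains, and all but *Col5a3* and *Col11a1* had control medians of at least 100 CPM, so run length, class and level cannot be told apart here.

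**Figure D4:**
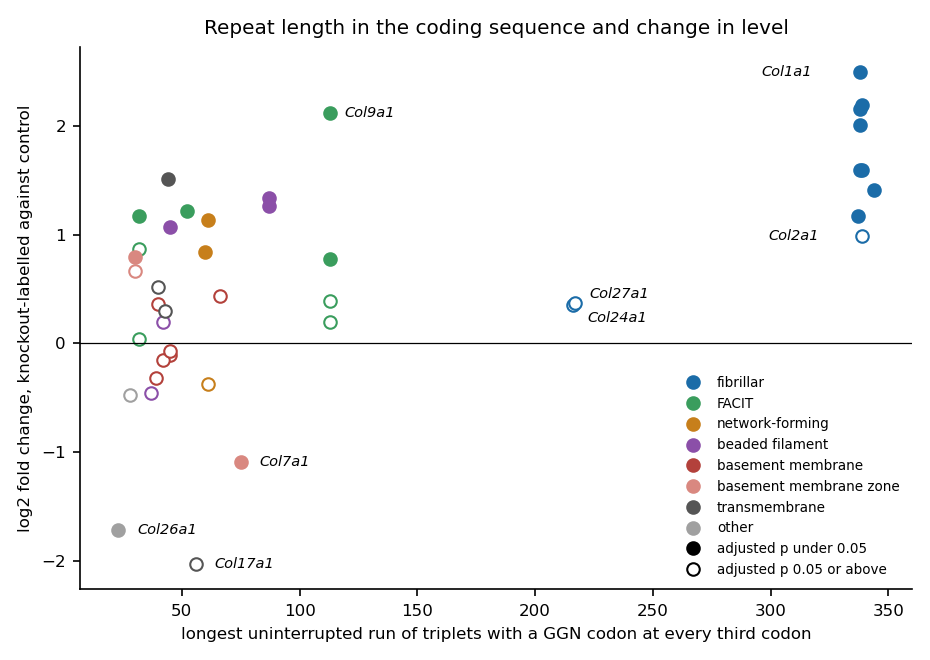
Log2 fold change (y axis) against the longest uninterrupted run of triplets opening with a glycine codon in the coding sequence (x axis, triplets) for the 42 members tested, coloured by class and filled where the adjusted p is under 0.05. The 9 fibrillar chains with 337 to 344 triplets lie at the right between 0.99 and 2.50, and members with shorter runs spread from -2.03 to 2.12.

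Whether chains that are built into one molecule or fibril kept their proportions was examined within libraries, as the log2 ratio of their counts, which does not depend on scaling between libraries. None of the 14 ratios passed the exact two-sided permutation test over 125970 assignments of the libraries after Benjamini-Hochberg adjustment, and 4 had an unadjusted p under 0.05. The ratio of *Col1a1* to *Col1a2* went from 1.10 in control to 1.34 in knockout-labelled libraries (geometric means), and all 12 of the latter lay above the control median (log2 difference 0.29, SE 0.09, exact permutation p = 0.00603, adjusted p = 0.0562). Relative to *Col1a1*, *Col5a1* went from a ratio of 0.0970 to 0.0527 (log2 difference -0.88, SE 0.27, exact permutation p = 0.00834, adjusted p = 0.0562) and *Col3a1* went from 0.520 to 0.231 (log2 difference -1.17, SE 0.36, exact permutation p = 0.0120, adjusted p = 0.0562). *Col10a1* relative to *Col2a1* had a log2 difference of -1.51 (SE 0.64, exact permutation p = 0.0292, adjusted p = 0.102). With a pseudocount of 5 in place of 0.5 these 4 ratios passed, with adjusted p between 0.0382 and 0.0421. The unadjusted permutation p barely moved for *Col1a1/Col1a2* (0.00601), *Col5a1/Col1a1* (0.00819) and *Col3a1/Col1a1* (0.0120). For *Col10a1/Col2a1* it fell to 0.00595, and control library 8 held 0 counts of *Col10a1* and 22 of *Col2a1*. The type I ratios thus passed through the adjustment over the 14 ratios, not through a change of their own. Leaving out 1 library let 6 ratios pass without control library 8, 4 without knockout-labelled library 11, 3 without control library 5 or knockout-labelled library 4, 5 or 7, and 1 without control library 6.

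The other ratios were between chains of the same heterotrimer or chains that meet in one tissue. The log2 difference between groups was -0.09 (SE 0.06) for *Col4a1* to *Col4a2*, -0.01 (SE 0.13) for *Col5a1* to *Col5a2*, -0.03 (SE 0.05) for *Col6a1* to *Col6a2*, -0.20 (SE 0.14) for *Col6a3* to *Col6a1* and 0.08 (SE 0.18) for *Col11a1* to *Col11a2*. The spread between libraries was small for the type VI pair, whose log2 ratio had an SD of 0.12 in control and 0.08 in knockout-labelled libraries. The log2 difference was 0.31 (SE 0.38) for *Col8a1* to *Col8a2*, 0.19 (SE 0.27) for *Col9a2* to *Col9a3* and 0.51 (SE 0.76) for *Col11a1* to *Col2a1*. For *Col9a1* to *Col9a2* the difference was 1.01 (SE 0.50, exact permutation p = 0.0514, adjusted p = 0.144). Type II relative to type I differed by -0.94 (SE 0.96, exact permutation p = 0.272), with all 12 knockout-labelled libraries below the control median and control library 8, at a log2 ratio of -9.34, below them all. Among the ratios that passed without control library 8 were *Col2a1/Col1a1* (log2 difference -1.80) and *Col11a1/Col2a1* (log2 difference 1.20).

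**Figure D5:**
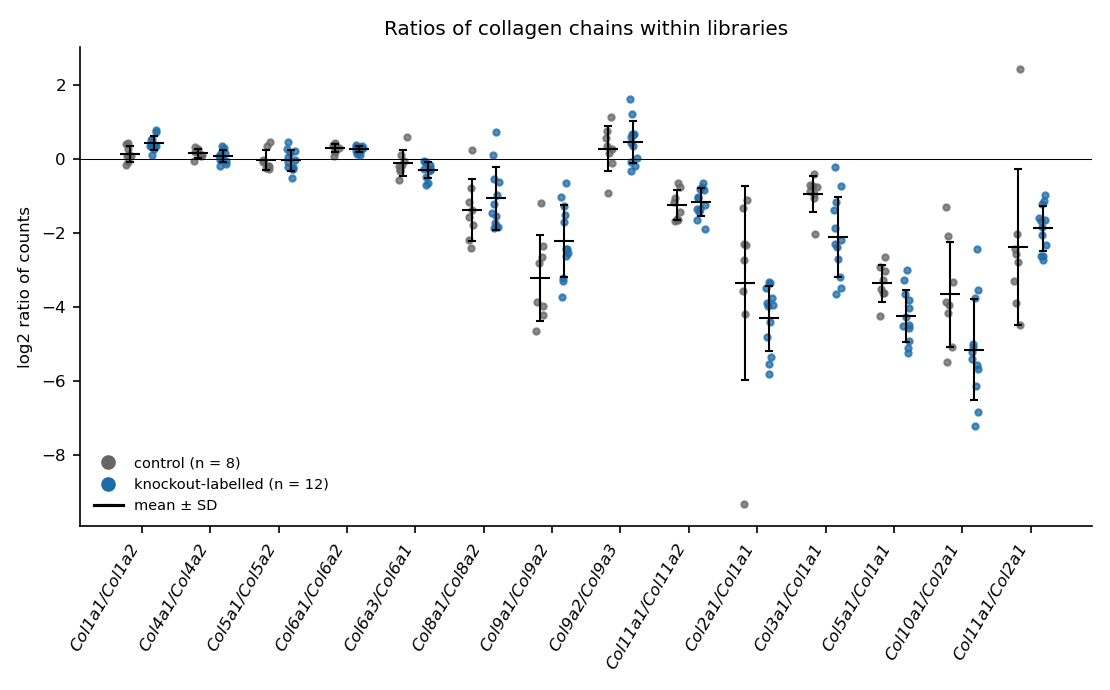
Log2 ratio of the counts of paired collagen chains (y axis) in each control (grey, n = 8) and knockout-labelled library (blue, n = 12), with mean and SD. The ratios of *Col4a1* to *Col4a2* and of *Col6a1* to *Col6a2* hold within narrow ranges in both groups, *Col3a1* and *Col5a1* relative to *Col1a1* have lower means in the knockout-labelled group, a difference that did not pass after adjustment, and control library 8 is the low point for *Col2a1/Col1a1* at -9.34.

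The genes that serve collagen chains were examined as lists, beside the 12.0% higher and 11% lower among all genes tested. Of 24 genes for hydroxylation, folding and secretion of the chains, all tested, 16 were higher and 2 lower, with a median log2 fold change of 0.68. They included *Serpinh1* (1.43, SE 0.22, adjusted p = 0.00104), the chaperone of the collagen helix, *P4hb* (0.60, SE 0.10), the shared subunit of the prolyl 4-hydroxylases, and *P4ha3* (1.62, SE 0.26), a catalytic subunit. *Tmem38b* (-0.53, SE 0.14), an ion channel of the endoplasmic reticulum, and *Mia2* (-0.25, SE 0.08), which takes part in export from it, were the 2 that were lower. Of 7 tested genes (10 listed) that remove procollagen ends, 4 were higher and none lower (median 0.70), among them *Bmp1* (1.24, SE 0.23), the C-proteinase, its enhancer *Pcolce* (1.36, SE 0.23) and the N-proteinase *Adamts2* (1.43, SE 0.28).

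Among fibril-binding proteins 7 of 18 tested (21 listed) were higher and none lower (median 0.51). Those with the smallest p were *Thbs2* (0.97, SE 0.22), *Sparc* (1.47, SE 0.35), a collagen-binding protein abundant in bone, and the small leucine-rich proteoglycan *Aspn* (0.91, SE 0.23). Of 11 tested collagen receptors (12 listed) 5 were higher and none lower (median 0.68), with the endocytic receptor *Mrc2* at 1.24 (SE 0.25), the integrin subunit *Itga2* at 1.39 (SE 0.38) and its partner *Itgb1* at 0.34 (SE 0.09). The genes listed under collagen breakdown had the highest median of these lists, 1.93, with 7 of 10 tested (11 listed) higher and none lower. Among those higher, *Ctsk*, *Acp5* and *Mmp9* are also in the osteoclast marker list given below, so the 2 lists are not separate observations. Here *Mmp14*, a membrane-bound collagenase, had a log2 fold change of 1.78 (SE 0.29), *Ctsk*, the collagen-cleaving protease of osteoclasts, of 2.68 (SE 0.48) and *Acp5*, a phosphatase of osteoclasts, of 2.85 (SE 0.56). Of 21 regulators of collagen genes 7 were higher and 2 lower (median 0.33): *Tgfb1* (1.06, SE 0.18), *Creb3l1* (1.86, SE 0.33), a transcription factor that acts on type I genes in bone, and *Foxc2* (1.34, SE 0.33) had the smallest p, and *Mef2c* (-0.36, SE 0.10) and *Sox6* (-0.47, SE 0.14), which act in cartilage and muscle, were lower. The regulator and fibril-binding lists also share genes with the marker lists below. Among their higher genes, *Sp7* is an osteoblast marker, *Nfatc1* an osteoclast marker and *Lum* a fibroblast marker there.

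Markers of several other cell types also differed between the groups, where 23.0% of all genes were called. Osteoblast and osteocyte markers were higher for 8 of 14 and lower for none, and their sum ran from 204 to 2153 CPM (median 1070) in control and from 343 to 4648 CPM (median 2826) in knockout-labelled libraries. Osteoclast markers were higher for 13 of 13, with a sum of 243 to 1644 CPM (median 517) and 773 to 8568 CPM (median 2724). Macrophage markers were higher for 8 of 9 (median sum 120 and 343 CPM), fibroblast and tendon markers for 4 of 12 (median sum 3503 and 3948 CPM), and skeletal muscle markers were lower for 6 of 15 (median sum 85471 and 67729 CPM). The libraries at the ends were the same as for type I collagen: control library 5 was the highest and library 8 the lowest control for the osteoblast and the osteoclast sums, and library 5 was the lowest knockout-labelled library for both. None of the listed markers of these types was at 0 in all libraries. Of the remaining lists, erythroid markers were called for 0 of 7 tested, Schwann cell markers for 0 of 8, neutrophil markers for 1 of 9 (higher), salivary gland markers for 1 of 3 (higher) and adipocyte markers for 1 of 7 (lower).

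With the mean log2 CPM of the tested genes of a marker list added to the fit, the collagen calls changed. With the osteoblast and osteocyte list 10 members were called (8 higher and 2 lower, *Col7a1* and *Col10a1*), against 4.65% of all genes. Log2 fold changes stayed near their earlier size for *Col3a1* (1.29) and *Col5a3* (1.29, adjusted p = 0.052), were 1.54 for *Col1a1* and 1.23 for *Col1a2*, and were 0.41 for *Col13a1* and 0.14 for *Col9a1*, neither of which was called. With the skeletal muscle list 7 were called (6 higher), against 4.36%, and the type XI chains, at 1.06 for *Col11a1* and 1.13 for *Col11a2*, were not among them. With the osteoclast list edgeR called 0 members and 0 genes of any kind, with 15 members and 1280 genes at an unadjusted p under 0.05, and the smallest adjusted p of the 21 members called without a covariate was 0.588. The fold changes themselves did not all shrink: the log2 value was 1.27 for *Col3a1*, 1.18 for *Col6a1*, 1.25 for *Col6a2* and 1.22 for *Col5a3*, against 0.71 for *Col1a1*, 0.65 for *Col1a2*, 0.24 for *Col11a2* and -0.14 for *Col7a1*. With the cartilage list 22 were called (21 higher), against 25.6%. *Col1a1*, *Col1a2*, *Col3a1*, *Col5a1*, *Col5a2*, *Col6a2* and *Col7a1* kept their calls in every setting run other than the osteoclast covariate. Genes of the osteoblast and osteocyte, osteoclast and skeletal muscle lists were themselves called between the groups. None of the cartilage list was, and the median of its sum was 2200 CPM in control and 2163 CPM in knockout-labelled libraries. How far the cells that the lists mark contribute to the collagen differences was not tested.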

How the data were processed

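Total RNA of 20 TMJ condyle samples (8 control and 12 labelled knockout) was sequenced by the authors as paired-end reads. The authors trimmed the reads, aligned them to mm10 and deposited raw counts per Ensembl gene, made with featureCounts. The aligner, annotation release, strand setting and treatment of multiply mapped reads were not given in the sources used here, so counts of overlapping or antisense genes are uncertain. Groups and replicate numbers came from the sample titles. Symbols, coordinates and transcripts came from GENCODE M21 (GRCm38, the same build), in which all 44 members were found.

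Counts were analysed in R 4.3.3 with edgeR 4.0.16: genes were filtered with filterByExpr by group, scaled with TMM, fitted over all 20 libraries without covariates, and tested with the two-sided quasi-likelihood F-test, adjusted by Benjamini-Hochberg over 15984 genes, with a threshold of 0.05. CPM values use TMM library sizes. Percent shares and chain ratios use the counts themselves, with 0.5 added to each count in ratios, and 14 ratios were compared with an exact permutation test. Total counts per library ranged from 11153820 to 27045668. The most similar pair of libraries differed by a chi-square of 32.9 per degree of freedom, so none was a repeat of another. The edgeR fit and the permutation code were tested on simulated data.

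The members, classes, pathway lists and marker lists were chosen with earlier results of these data known. The genes named are all members, by class, with library values for 12 major chains, for the 6 called members with the largest fold change and the 4 with the smallest p, and for further members whose values carry a statement, and from each pathway list the 3 called genes with the smallest p, with any that were lower. Alternatives were DESeq2 1.42.0, other scaling and filters, a replicate block, omission of each library, a pseudocount of 5 and a marker list (skeletal muscle, osteoblast and osteocyte, osteoclast or cartilage) as a covariate. The epithelial list as a covariate, and the 16 libraries of replicates 1 to 8 without a block, were added after seeing the data. Figures were drawn with matplotlib 3.10.9.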

Additional observations from a re-analysis of the deposited data

Results flagged for a closer look

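Of 57 sets of 8 control values examined (members and chain ratios), 6 held a library whose gap to its nearest neighbour, divided by the range of the group, exceeded Dixon's 95% critical value for 8 samples. Chance alone gives such a gap in about 1 in 20 sets. The sets share the same 8 libraries and some share a gene, so they are not independent and this rate is no test of the 6. In 5 of the 6 the library was control library 8. It held 1.68 CPM of *Col2a1* (gap 0.590 of the range on the log2 scale), 1.45 CPM of *Col4a5* (gap 0.588) and 9.49 CPM of *Col14a1* (gap 0.531), and its log2 ratio was -9.34 for *Col2a1/Col1a1* (gap 0.627) and 2.43 for *Col11a1/Col2a1* (gap 0.647). In control library 5 the log2 ratio of *Col3a1/Col1a1* was -2.04 (gap 0.597), the lowest of the controls. These values were kept in every comparison apart from the fits that left out 1 library. Some results without control library 8 are given above. Without control library 5 the log2 fold change was 3.04 for *Col1a1*, 2.66 for *Col1a2*, 2.53 for *Col11a2* and 2.50 for *Col11a1*, all still called.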

How the results depend on the processing

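The count of called members (21; 19 higher and 2 lower) stayed within 1.5 times under DESeq2, other scalings and filters, the cartilage and epithelial covariates and the omission of any 1 library (18 to 21 called, 16 to 19 higher, 1 to 2 lower). Of the 21 called members 16 were called in each of the 20 fits without 1 library. It fell to 7 with the skeletal muscle list as a covariate (6 higher, 1 lower), 10 with the osteoblast and osteocyte list (8 higher), 0 with the osteoclast list (0 higher, 0 lower; 15 at an unadjusted p under 0.05), and 10 with the replicate block (9 higher, 1 lower, of 40 tested, against 11.5% of all genes). Only 1 lower member was called with library totals alone, with no filter, with the cartilage or the epithelial list and in the 16 libraries of replicates 1 to 8 with no block (16 called, 15 higher). Same-numbered libraries did not deviate together (r from -0.36 to 0.17), so the numbers were not taken to pair animals. Library totals alone moved the median of all genes to 0.12 and the calls over all genes from 1918 higher and 1755 lower to 2188 and 849. The count of chain ratios that passed went from 0 to 4 with a pseudocount of 5, ranged from 0 to 6 without 1 library, and was 0 with the replicate block, where the 256 possible sign flips allow no p under 0.00781, so that no single ratio could pass alone after adjustment over 14.

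The sign turned for the following members, none of them called apart from *Col8a2*. With the osteoblast list the log2 fold change was -0.95 for *Col2a1*, -0.61 for *Col27a1*, -0.81 for *Col24a1*, -0.18 for *Col23a1*, -1.32 for *Col9a2*, -1.57 for *Col9a3*, -0.66 for *Col25a1* and 0.11 for *Col4a3*. With the osteoclast list it was -0.34 for *Col2a1*, -0.14 for *Col27a1*, -0.0086 for *Col8a2*, -0.24 for *Col24a1*, -0.95 for *Col23a1*, -0.42 for *Col9a2*, 0.10 for *Col4a5*, -0.34 for *Col9a3*, -1.28 for *Col25a1*, 0.26 for *Col4a3*, 0.13 for *Col4a4* and 0.48 for *Col4a6*. With the muscle list it was -0.042 for *Col27a1*, -0.11 for *Col24a1*, -0.30 for *Col23a1*, -0.25 for *Col9a2*, -0.47 for *Col25a1* and 0.10 for *Col4a3*, and with the epithelial list 0.59 for *Col17a1*, 0.019 for *Col10a1*, 0.11 for *Col4a6* and 0.13 for *Col6a5*. With the replicate block it was -0.25 for *Col24a1*, -0.092 for *Col20a1*, -0.52 for *Col9a2* and -0.73 for *Col9a3*, in the same 16 libraries with no block -0.063 for *Col20a1* and -0.17 for *Col9a2*, and with library totals alone 0.034 for *Col4a4* and 0.031 for *Col4a6*. Without 1 library it ranged from -0.78 to 0.46 for *Col10a1*, -0.024 to 0.17 for *Col20a1*, -0.29 to 0.49 for *Col6a6* and -0.31 to 0.069 for *Col4a6*, and the *Col5a1/Col5a2* difference from -0.057 to 0.056. The cause of these turns was not tested. Members with a control median under 1 CPM rest on few counts, which limits what can be said of *Col4a6*, *Col9a1*, *Col17a1* and *Col28a1* and of the untested *Col6a4* and *Col19a1*.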
